A study of Mus musculus with 12 samples.

Results

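A set of 7 genes of the tumour necrosis factor (TNF) superfamily of ligands were followed in mouse eosinophils: Tnf, Lta, Ltb, Tnfsf9, Tnfsf10, Tnfsf13b and Tnfsf14. They were taken by gene symbol from a count table of 54532 genes, in which all 7 had a row, and 6 of the 7 passed the expression filter and were tested. Tnfsf13b did not pass it.

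RNA sequencing was done on splenic eosinophils sorted by high side scatter and 4get fluorescence from IL-5tg_4get/C57BL/6 mice. All 4 groups therefore carried an IL-5 transgene, which drives eosinophilia, and the 4get reporter, which marks IL-4-producing cells with GFP. The model is thus a hypereosinophilic animal, and no wild-type eosinophils were compared. Cells were kept in culture for 4 h with the rat IgG2a isotype control antibody (isotype group), with 5 µg/mL of the rat anti-Siglec-F antibody E50-2440, with 10 ng/mL recombinant murine IL-33, or with the anti-Siglec-F antibody and IL-33 together (both stimuli), in 3 libraries per group. The labels give no age of the mice. They also leave unsaid whether each library stands for its own mouse or culture, and p-values then cover only the scatter among the libraries, some or all of which may be technical. Nor do they state whether cells given IL-33 alone received the isotype antibody. Siglec-F is a sialic acid-binding receptor of eosinophils with inhibitory motifs, and IL-33 is an alarmin cytokine released by damaged barrier cells.

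TNF superfamily ligands are trimeric proteins, made as membrane proteins on the cell surface, that signal to neighbouring cells through receptors of the matching TNF receptor superfamily. Some, TNF among them, are also cut from the membrane and act at a distance. Receptor engagement recruits TRAF adaptor proteins and activates the transcription factor NF-kB, and receptors with a death domain can also start apoptosis. Eosinophils are a known source of stored and newly made TNF in allergic inflammation.

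Total counts per library lay between 11686603 and 17137988. Libraries 2 and 3 of the group with both stimuli stood apart, with 15555 and 29990 genes having at least 1 count against 19138 to 24485 elsewhere, and results that rest on them are also given with these left out. The cells carried all 10 eosinophil markers listed, none of them at 0, with Ccr3 at 1735 ± 114 CPM and Siglecf at 878 ± 77.7 CPM in the isotype group (SD, n = 3). Some other markers varied more there, with Prg2 at 2826, 1553 and 658 CPM and Epx at 637, 277 and 123 CPM. The 10 markers summed to 5897 to 10878 CPM with isotype and 6145 to 10805.5 CPM with anti-Siglec-F. With IL-33 the sums were 4586 to 7928 CPM, and with both stimuli 5675 to 14010 CPM. With IL-33 alone, Ccr3 and Alox15 libraries lay below isotype without overlap, as did those of 13.1% of all genes tested. The other listed markers overlapped, and none of the 10 was called in edgeR. CPM relates the reads of a gene to the size of its library, scaled here with TMM factors. In bulk RNA, fewer cells of a type and less RNA per cell cannot be told apart.

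Of the 7 genes, 5 lie on chromosome 17, in a pair of clusters. Ltb (ENSMUSG00000024399, chr17:35194439-35196320, plus strand), Tnf (ENSMUSG00000024401, chr17:35199381-35202007, minus strand) and Lta (ENSMUSG00000024402, chr17:35203165-35205351, minus strand) were neighbours in mm10, with 3060 bases between Ltb and Tnf and 1157 between Tnf and Lta. Tnfsf9 (ENSMUSG00000035678, chr17:57105325-57107757, plus strand) and Tnfsf14 (ENSMUSG00000005824, chr17:57189492-57194177, minus strand) formed the other cluster. Tnfsf10 (ENSMUSG00000039304, chr3:27317028-27342427) and Tnfsf13b (ENSMUSG00000031497, chr8:10006467-10039072) lay elsewhere.

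The upstream sequences of the 3 abundant ligands are shown because edgeR called Tnf with IL-33 against isotype and did not call Ltb or Tnfsf14 there. The sequences are from RefSeq (GRCm38.p6). Those of Tnf and Ltb run to the base before the start of the gene, and that of Tnfsf14 ends at the RefSeq start, a few bases short of it. For Ltb the last 68 bases before the RefSeq start lie inside the deposited gene and are not printed. RefSeq promoters were matched for 6 of the 7 genes, Tnfsf9 being the exception. Capitals mark matches, on either strand, to a kappa B consensus, to the AP-1 site TGANTCA, to the TATA box TATAAA or to the NFAT core GGAAAA. The Tnf sequence is chr17:35202008-35202257, that of Ltb chr17:35194257-35194438 and that of Tnfsf14 chr17:57194182-57194431.
Tnf, read from the minus strand: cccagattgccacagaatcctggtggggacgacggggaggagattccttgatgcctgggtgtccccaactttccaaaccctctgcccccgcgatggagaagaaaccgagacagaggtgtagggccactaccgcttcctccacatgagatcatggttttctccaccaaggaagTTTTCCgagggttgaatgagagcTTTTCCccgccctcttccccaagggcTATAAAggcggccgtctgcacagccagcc
Ltb, read from the plus strand: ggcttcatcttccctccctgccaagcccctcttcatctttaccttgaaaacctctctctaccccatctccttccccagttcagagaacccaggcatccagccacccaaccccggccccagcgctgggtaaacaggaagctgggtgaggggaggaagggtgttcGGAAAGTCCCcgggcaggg
Tnfsf14, read from the minus strand: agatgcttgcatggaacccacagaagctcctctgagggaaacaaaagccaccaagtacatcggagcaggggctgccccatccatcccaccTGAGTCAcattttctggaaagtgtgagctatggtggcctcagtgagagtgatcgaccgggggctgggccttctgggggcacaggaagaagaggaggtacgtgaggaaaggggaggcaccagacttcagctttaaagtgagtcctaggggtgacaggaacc

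In the 250 bases before the RefSeq start, Tnf held a TATAAA match 29 to 24 bases before it and a pair of NFAT core matches, on the opposite strand, at 78 to 73 and 55 to 50 bases. Ltb held 1 kappa B consensus match on the opposite strand, at 87 to 78 bases. Tnfsf14 held 1 AP-1 match at 160 to 154 bases. None of these matches overlapped another motif. Among 32851 RefSeq promoters, windows of the same length held the kappa B consensus in 7.25%, AP-1 in 6.75%, TATAAA in 12.4% and GGAAAA in 20.4% of cases. A match describes the letters only.

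Tnf encodes the founding cytokine of the family, which binds Tnfrsf1a and Tnfrsf1b. Its level in the 3 isotype libraries was 23.6, 21.0 and 20.1 CPM, and with anti-Siglec-F alone it was 48.3, 50.4 and 50.2 CPM. With IL-33 it was 190, 133 and 91.0 CPM, and with both stimuli 220, 177 and 350 CPM. Every library of each stimulated group was above every isotype library, and the ranges with IL-33 and with both stimuli overlapped.

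**Figure D1:**
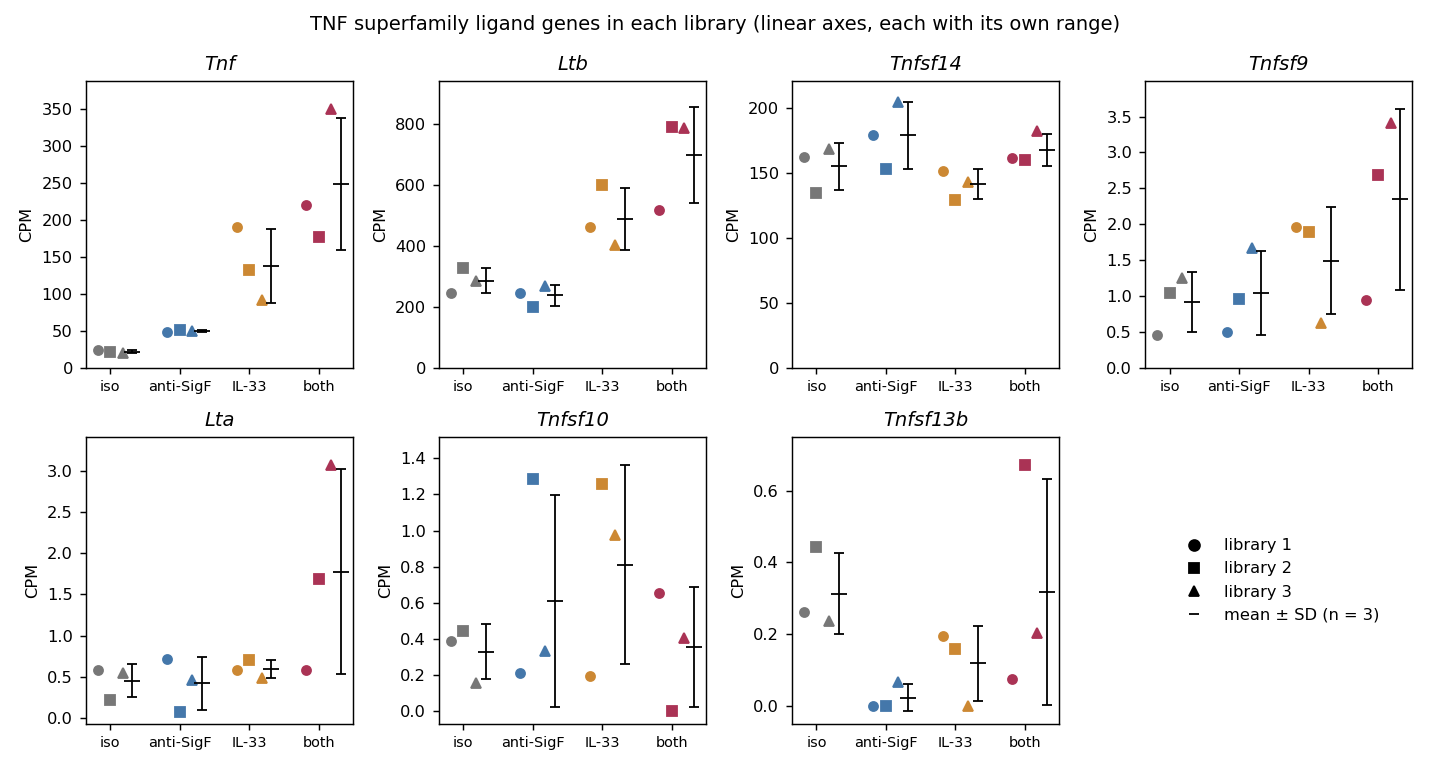
Level of the 7 ligand genes in CPM (vertical axes, linear, each with its own range) in the 3 libraries of the isotype (iso), anti-Siglec-F (anti-SigF), IL-33 and both-stimuli (both) groups, with the mean and SD beside them. Tnf is lowest in the 3 isotype libraries, Ltb is above the isotype range in all 6 libraries with IL-33, and Tnfsf14 keeps a narrow range in every group.

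Ltb encodes lymphotoxin beta, which joins lymphotoxin alpha at the cell surface in a trimer that binds Ltbr. Isotype libraries held 243, 328 and 285 CPM, and anti-Siglec-F libraries 245, 198 and 267 CPM. IL-33 libraries held 461, 599 and 403 CPM, and libraries with both stimuli 515, 788 and 786 CPM. The 6 libraries with IL-33 lay above the 6 without it. Within the group with both stimuli the 2 libraries that stood apart were the high ones.

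Tnfsf14 encodes LIGHT, which binds Tnfrsf14 and Ltbr. Its levels were 162, 135 and 169 CPM with isotype, 179, 153 and 205 CPM with anti-Siglec-F, 152, 129 and 143 CPM with IL-33, and 162, 160 and 182 CPM with both stimuli. The IL-33 libraries lay below those with anti-Siglec-F and below those with both stimuli, without overlap, and the other pairs of groups overlapped.

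The other 4 ligands were near the limit of detection, where 3 counts correspond to 0.196 to 0.252 CPM. Tnfsf9, the 4-1BB ligand that costimulates T cells through Tnfrsf9, had 7, 14 and 16 counts with isotype, 7, 12 and 25 with anti-Siglec-F, 30, 24 and 9 with IL-33, and 13, 32 and 50 with both stimuli. Lta, which encodes lymphotoxin alpha, had 9, 3 and 7 counts with isotype, 10, 1 and 7 with anti-Siglec-F, 9, 9 and 7 with IL-33, and 8, 20 and 45 with both stimuli. For these genes the highest values came from libraries 2 and 3 of the combined group.

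Tnfsf10, which encodes the apoptosis-inducing ligand TRAIL, had 6, 6 and 2 counts with isotype, 3, 16 and 5 with anti-Siglec-F, 3, 16 and 14 with IL-33, and 9, 0 and 6 with both stimuli. Tnfsf13b, which encodes the B cell survival factor BAFF, had 4, 6 and 3 counts with isotype, 0, 0 and 1 with anti-Siglec-F, 3, 2 and 0 with IL-33, and 1, 8 and 3 with both stimuli. No difference in Tnfsf10 was called in edgeR. Tnfsf13b was not tested, and its anti-Siglec-F libraries, at 0 to 0.0667 CPM, lay below its isotype libraries, at 0.235 to 0.443 CPM. At so few counts this separation carries little weight. Tnfsf9 overlaps the antisense gene Gm11110, and Tnfsf13b overlaps Gm44789 on the opposite strand, so their reads cannot be told apart without the strand setting of the counting.

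Levels were compared between genes as CPM per kilobase of the deposited gene length. In isotype libraries Ltb had a mean of 188 CPM per kilobase, Tnfsf14 had 84.0 and Tnf 13.2. The ranges of these genes did not overlap. They were followed by Tnfsf9 at 0.709 and Lta at 0.327, whose ranges overlapped, and by Tnfsf10 at 0.0628 and Tnfsf13b at 0.0456, which also overlapped. With IL-33 the level of Tnf, 84.2 CPM per kilobase and 55.6 to 116 over the libraries, overlapped that of Tnfsf14, at 76.6 and 70.0 to 82.1. With both stimuli Tnf, at 152 and 108 to 214, lay above Tnfsf14, at 90.9 and 86.6 to 98.6, and Ltb stayed above both at 459.

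Tnf, Ltb and Tnfsf14 made up nearly all of the summed CPM per kilobase of 18 TNF superfamily ligand genes. The share of Tnf was 4.57 ± 0.708% with isotype, 10.6 ± 1.50% with anti-Siglec-F, 17.1 ± 5.06% with IL-33 and 21.4 ± 5.58% with both stimuli (SD, n = 3). The share of Tnfsf14 had means of 29.1%, 33.6%, 16.0% and 13.1% in the same order, and that of Ltb 64.6%, 54.1%, 65.7% and 64.7%. Shares within a sum are not independent of each other, and no test was run on them. Of the 11 ligands outside the 7, Tnfsf8 and Tnfsf12 passed the expression filter, and edgeR called neither in any comparison.

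**Figure D2:**
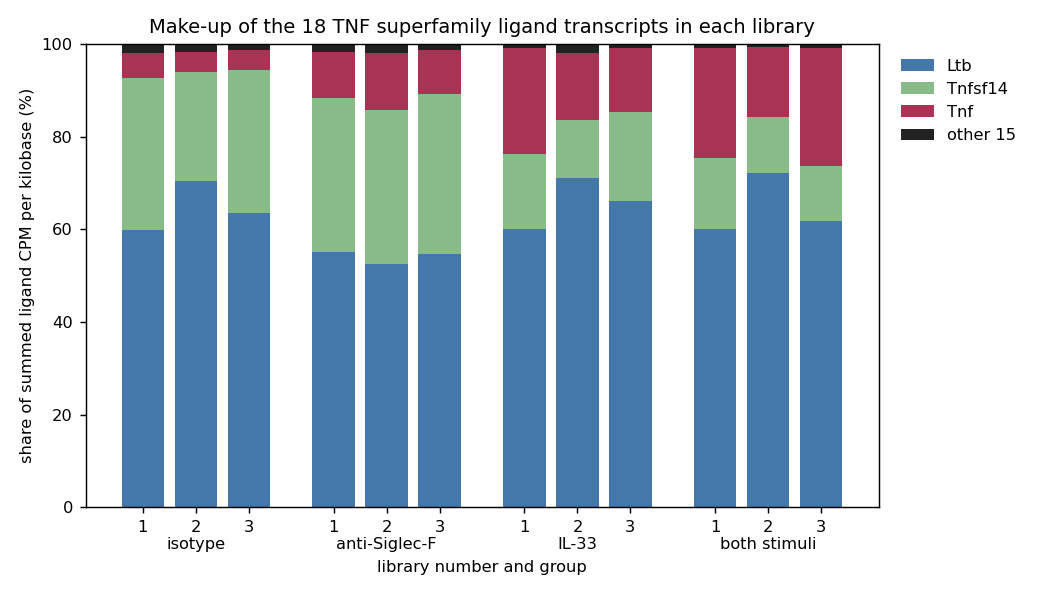
Share of each ligand in the summed CPM per kilobase of 18 TNF superfamily ligand genes (vertical axis, percent), 1 stacked bar per library, 3 libraries per group. The Tnf part grows from a mean of 4.57% with isotype to 21.4% with both stimuli, while the other 15 genes together remain a thin band.

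Cells given IL-33 alone were first set against the isotype group. Tnf rose 6.39-fold, a log2 fold change of 2.68 (SE 0.278, adjusted p = 0.000214 in edgeR's quasi-likelihood test), and 1 of the 6 tested ligands was called. Over all 14547 genes tested, 1.46% were called higher and 2.21% in either direction. Tnf kept the call in each of the 6 fits that left out 1 library, with log2 fold changes from 2.37 to 2.94. The libraries of Ltb did not overlap between the groups, as in 11.0% of all genes for higher values, and its log2 fold change was 0.77 (SE 0.211, adjusted p = 0.0804). Ltb was called in edgeR with the replicate number as a block and only these groups (0.78, adjusted p = 0.00964). The labels do not give that pairing, which was inferred from these same counts. Ltb was also called in DESeq2 (adjusted p = 0.0085), and in edgeR without IL-33 library 3 (adjusted p = 0.0401). The latter was the 1 call in 6 edgeR fits that left out 1 library, with adjusted p up to 0.293. Of all alternatives run, 6 called Ltb and 9 did not.

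Tnfsf14 had a log2 fold change of -0.13 (95% interval -0.46 to 0.19) with IL-33. Tnfsf9, Lta and Tnfsf10 had values of 0.71, 0.38 and 1.25, each with an interval that included 0. The median log2 fold change over the 6 ligands was 0.74, against -0.01 over all genes tested. This median, and the same median in the comparisons below, includes Tnfsf9, Lta and Tnfsf10, which were near the detection limit.

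Anti-Siglec-F against isotype asked what receptor ligation did without the cytokine. The log2 fold change of Tnf was 1.20 (SE 0.268, 95% interval 0.63 to 1.78), with an unadjusted p of 0.00054 and an adjusted p of 0.873 in edgeR over all 14547 genes. In edgeR 0% of all genes and 0 of the 6 ligands were called, and 370 genes (2.54%) and 1 ligand, Tnf, had an unadjusted p under 0.05. Tnf was the only ligand whose libraries did not overlap, as in 6.73% of all genes for higher values. DESeq2 called Tnf (adjusted p = 0.0205, 12 genes called), limma voom with quality weights did so (adjusted p = 0.0334, 10 genes), and edgeR fitted to these groups alone did so (adjusted p = 0.00752, 20 genes). Ltb had a log2 fold change of -0.27 (interval -0.72 to 0.18) and Tnfsf14 of 0.21 (-0.12 to 0.53). The median over the 6 ligands was 0.21, against -0.01 over all genes.

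Both stimuli against isotype gave the largest change in Tnf, 11.5-fold, a log2 fold change of 3.53 (SE 0.287, adjusted p = 3.16e-05 in edgeR). Ltb rose 2.44-fold, a log2 fold change of 1.29 (SE 0.213, adjusted p = 0.00233). These were the 2 of 6 ligands called, where 5.47% of all genes were called higher and 9.88% in either direction. Without libraries 2 and 3 of the combined group Tnf had a log2 fold change of 3.40 (adjusted p = 3.75e-05), and Ltb one of 0.90 that was not called (adjusted p = 0.0553). Lta had a value of 1.95 (SE 0.751, adjusted p = 0.117), which was 2.35 and called without library 1 of the combined group (adjusted p = 0.0437) and 0.41 without libraries 2 and 3. The median over the 6 ligands was 1.32, against -0.05 over all genes. It rests in part on Tnfsf9 and Lta, which were not called and were highest in libraries 2 and 3 of the combined group. A median without these libraries is not given.

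**Figure D3:**
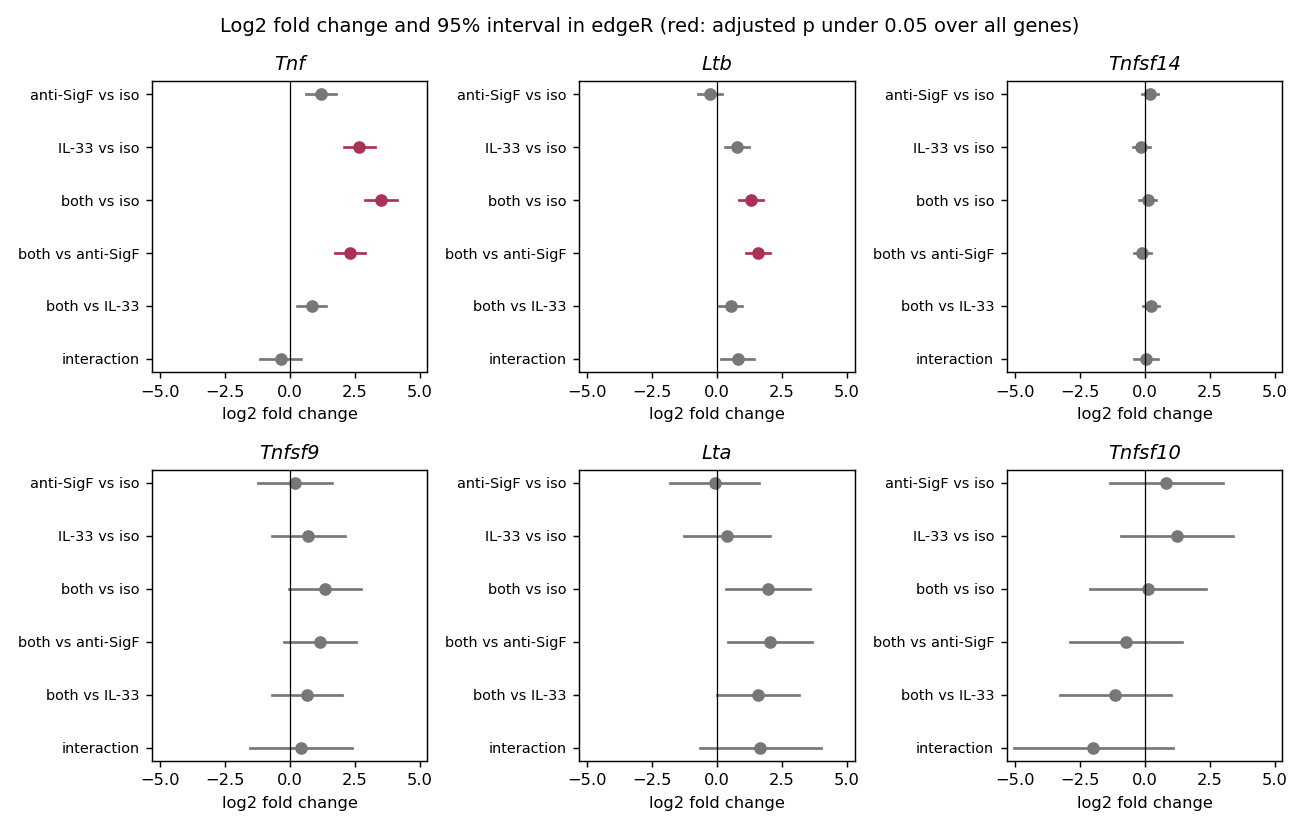
Log2 fold change (horizontal axes) with its 95% interval for the 6 tested ligands in 5 comparisons and the interaction, from the edgeR fit over 12 libraries, red where the adjusted p over all genes was under 0.05. Tnf is red in the 3 comparisons of a group with IL-33 against one without it, Ltb in 2, both stimuli against isotype and against anti-Siglec-F, and Tnfsf14 lies close to 0 with short intervals.

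Both stimuli against anti-Siglec-F showed the change with IL-33 in cells that also received the antibody. Tnf rose 5.02-fold (log2 fold change 2.33, SE 0.271, adjusted p = 0.000569 in edgeR) and Ltb 2.94-fold (1.56, SE 0.215, adjusted p = 0.0016). These 2 of 6 ligands compare with 2.70% of all genes called higher and 4.42% in either direction. Without libraries 2 and 3 of the combined group both were called, with log2 fold changes of 2.20 and 1.17. Lta had a value of 2.04 (adjusted p = 0.132), called without library 1 of the combined group (2.44, adjusted p = 0.0396) and 0.50 without libraries 2 and 3. Tnfsf14 had a value of -0.09 (interval -0.41 to 0.23).

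Both stimuli against IL-33 showed what the antibody added to the cytokine. Tnf had a log2 fold change of 0.85 (SE 0.259, adjusted p = 0.191 in edgeR) and Ltb one of 0.51 (SE 0.21, adjusted p = 0.241), and the libraries of both genes overlapped between the groups. In edgeR 0% of all genes and 0 of the 6 ligands were called, with an unadjusted p under 0.05 for 2526 genes (17.4%) and for 2 ligands, Tnf and Ltb. DESeq2 called 470 genes and, among the ligands, Tnf (adjusted p = 0.048), and limma voom called no ligand. Without library 1 of the combined group edgeR called Tnf (0.92, adjusted p = 0.047) and Ltb (0.68, adjusted p = 0.0365). Over the 6 fits of this comparison with 1 library left out, 0 to 2116 of all genes were called. With libraries 2 and 3 left out the log2 fold changes of Tnf and Ltb were 0.71 and 0.12. Tnfsf14, the ligand whose libraries did not overlap, as in 6.98% of all genes for higher values, had a value of 0.25 (adjusted p = 0.398).

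The interaction, the antibody change with IL-33 minus that without it, was -0.35 for Tnf on the log2 scale (95% interval -1.14 to 0.44, adjusted p = 0.751 in edgeR). For Ltb it was 0.78 (0.15 to 1.42, unadjusted p = 0.0197, adjusted p = 0.583), and 0.39 with libraries 2 and 3 of the combined group left out. In edgeR 0% of all genes and 0 of the 6 ligands were called, with an unadjusted p under 0.05 for 1150 genes (7.91%) and for 1 ligand, Ltb. DESeq2 called 3 genes and no ligand, and limma voom called no ligand. A different antibody effect on Tnf with and without IL-33 was therefore not detected, within an interval that spans more than a 2-fold reduction.

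The receptors of these ligands were measured in the same cells. Tnfrsf1b, the TNF receptor that lacks a death domain, had 109, 114 and 130 CPM with isotype, 141, 141 and 170 with anti-Siglec-F, 260, 195 and 160 with IL-33, and 292, 171 and 227 with both stimuli. Each stimulated group lay above the isotype range. It rose with both stimuli (log2 fold change 0.97, SE 0.211, adjusted p = 0.0125 in edgeR), a call lost without isotype library 1 (adjusted p = 0.0659), and had a value of 0.80 with IL-33 (adjusted p = 0.0712). With IL-33 it was called in DESeq2, in limma voom, and in edgeR with libraries 2 and 3 of the combined group left out. Tnfrsf1a, which has a death domain, had means of 28.6, 34.9, 29.3 and 41.6 CPM in the order of the groups and was not called in edgeR.

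Ltbr, the receptor of lymphotoxin and LIGHT, had means of 17.8, 21.1, 21.7 and 24.8 CPM, and Tnfrsf14, the other LIGHT receptor, 30.4, 26.6, 39.9 and 36.7 CPM. Neither was called in any comparison in edgeR, while DESeq2 called Ltbr for both stimuli against isotype and limma voom called Tnfrsf14 for IL-33 against isotype. Tnfrsf9, the receptor of the 4-1BB ligand, had a log2 fold change of 1.65 with both stimuli against isotype (adjusted p = 0.0592), with 10.7, 4.37 and 11.6 CPM against 2.36 to 3.33 CPM, and was called by DESeq2 there and against anti-Siglec-F. The TRAIL receptor Tnfrsf10b, the TRAIL decoy receptors Tnfrsf22 and Tnfrsf23, and the BAFF receptors Tnfrsf13b and Tnfrsf13c were detected but not called in edgeR, and Tnfrsf17 had at most 2 counts in a library.

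**Figure D4:**
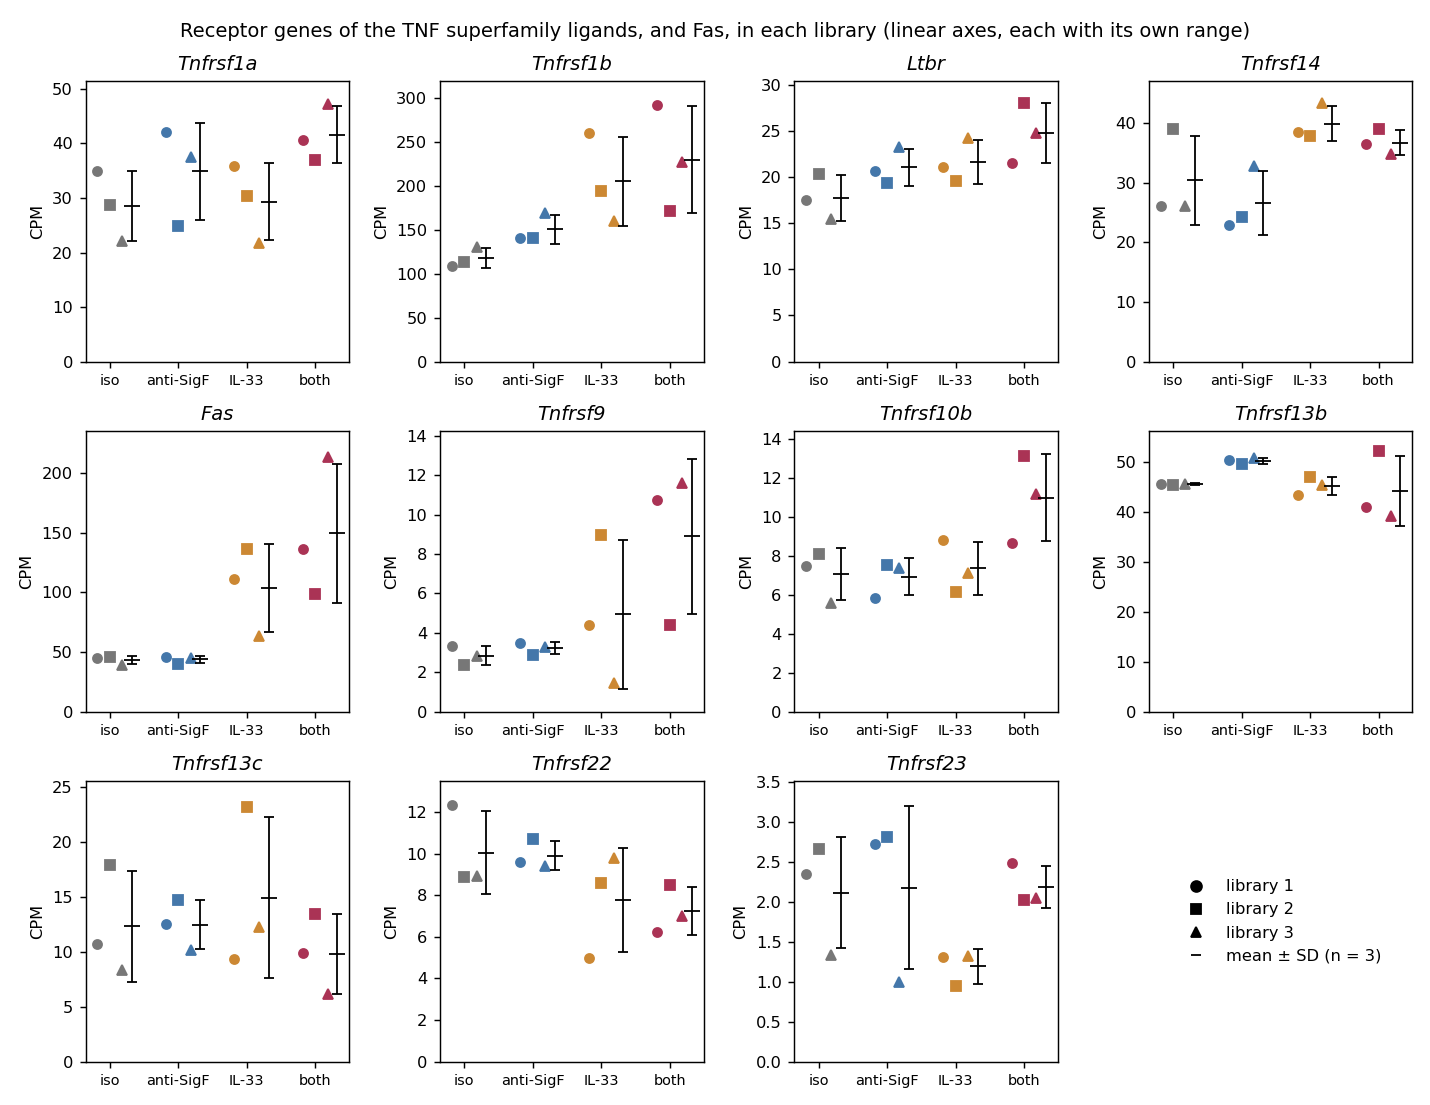
Level of receptor genes in CPM (vertical axes, linear, each with its own range) in 3 libraries per group, with the mean and SD beside them. Tnfrsf1b is above the isotype range in every stimulated library, Fas in every library with IL-33, and Tnfrsf13b stays between 39.2 and 52.3 CPM throughout.

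Of 28 receptor genes of the superfamily 22 were tested. In edgeR 1 rose and none fell with IL-33 against isotype (1.46% of all genes were called higher), 2 rose with both stimuli against isotype (5.47%), and 1 rose with both stimuli against anti-Siglec-F (2.70%). DESeq2 called 2, 4 and 3 higher, and limma voom called 3 higher and 1, Tnfrsf18, lower with IL-33 against isotype, then 2 and 1 higher. The DESeq2 and limma voom counts, here and in the lists below, are not comparable with the edgeR shares. DESeq2 called more of all genes than edgeR in each of these comparisons, and limma voom did so with IL-33 against isotype. The DESeq2 totals are given where the dependence on the processing is described. The receptor in all 3 edgeR counts was Fas, the death receptor of Fas ligand, at 44.8, 45.6 and 39.2 CPM with isotype and 136, 98.8 and 213 CPM with both stimuli (log2 fold change 1.79, SE 0.283, adjusted p = 0.00171 in edgeR). Its call with IL-33 alone (1.26, adjusted p = 0.0315) held in 1 of 6 fits with 1 library left out. Over the 22 receptors the median log2 fold change was 0.05 with IL-33 and 0.22 with both stimuli.

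Adaptors and NF-kB proteins downstream of these receptors were the next list. Of 30 genes tested in edgeR, 8 rose with IL-33 against isotype, 11 with both stimuli against isotype and 8 with both stimuli against anti-Siglec-F, beside 1.46%, 5.47% and 2.70% of all genes, and none fell. DESeq2 called 9, 12 and 11 higher and limma voom 14, 10 and 8, with Traf5 lower in limma voom with IL-33 and in DESeq2 with both stimuli against isotype. The medians were 0.29, 0.27 and 0.28. Many of these genes also act downstream of the IL-33 receptor, so they are not a readout of TNF receptors alone. Nfkbia, which encodes the inhibitor that holds NF-kB in the cytoplasm, had a log2 fold change of 2.90 with IL-33 (SE 0.256, adjusted p = 0.000113). Traf1, an adaptor of Tnfrsf1b, rose by 2.50, the NF-kB subunits Nfkb2 and Relb by 2.12 and 2.01. In both comparisons against isotype these genes were called in all 6 fits with 1 library left out.

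Genes that act on the TNF protein or its mRNA formed a further list, of which all 19 were tested. With IL-33 against isotype 2 rose in edgeR, beside 1.46% of all genes: Zc3h12a, the RNase regnase-1 that degrades inflammatory mRNAs, by a log2 fold change of 1.95 (SE 0.184, adjusted p = 0.000154 in edgeR), and Mapkapk2, a kinase that supports Tnf mRNA translation, by 1.13 (adjusted p = 0.0218). The Mapkapk2 call held in 2 of 6 fits with 1 library left out. With both stimuli against isotype 4 rose and 1 fell in edgeR, beside 9.88% of all genes in either direction. DESeq2 called 4 higher with IL-33, and 8 higher and 1 lower with both stimuli, and limma voom 6 higher and 1 lower, and 3 higher and 1 lower. Adam17, the protease that sheds TNF from the membrane, had 88.3, 77.8 and 86.1 CPM with isotype and 193, 122 and 146 CPM with both stimuli, a log2 fold change of 0.87 (SE 0.179, adjusted p = 0.00885). Map3k8, a kinase needed for TNF production, was called at 2.49 (adjusted p = 0.0228), although 1 library with both stimuli, at 3.20 CPM, lay within the isotype range, and the call held in 2 of 6 such fits. Tia1, a repressor of Tnf translation, fell by 0.79, a call lost without isotype library 1 or 3, and also when libraries 2 and 3 of the combined group were dropped (adjusted p = 0.0528).

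With both stimuli against anti-Siglec-F 4 genes of this list rose in edgeR (2.70% of all genes), Zc3h12a, Mapkapk2, Adam17 and Zfp36, the last of which encodes tristetraprolin, a protein that destabilises Tnf mRNA. DESeq2 called 5 higher and 1 lower there, and limma voom 2 higher. The Adam17 and Zfp36 calls (0.68 and 0.68) each held in 1 of 6 fits with 1 library left out. In edgeR no gene of the receptor, adaptor or mRNA-control lists was called for anti-Siglec-F against isotype, and DESeq2 and limma voom called 0. None of these genes had an unadjusted p under 0.05 in edgeR there, beside 2.54% of all genes. For both stimuli against IL-33 edgeR again called 0. There 3 receptors, 2 adaptors and 2 genes of mRNA control had an unadjusted p under 0.05, beside 17.4% of all genes. DESeq2 called 1 receptor, Tnfrsf26, and limma voom called 0.

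Neighbours of the ligand genes were read from a list for each cluster. Among the 6 tested of 7 listed genes around the Tnf cluster, edgeR called 0 for IL-33 against isotype. There 1, Prrc2a, had an unadjusted p under 0.05, as did 13.6% of all genes, and was called by DESeq2 and limma voom. For both stimuli against isotype edgeR also called 0. There 1, Lst1, had such a p, as did 26.5% of all genes, and was called by DESeq2 but not by limma voom. Lst1, which starts 13.6 kb from the start of Tnf, had log2 fold changes of -0.35 with IL-33 and 0.75 with both stimuli (adjusted p = 0.667 and 0.0774). For both stimuli against IL-33 it had a value of 1.10 (adjusted p = 0.191 in edgeR) and was called by DESeq2. Near Tnfsf14, C3, the complement component, was called with both stimuli against isotype (1.29, adjusted p = 0.0464), with overlapping libraries and a call that held in 1 of 6 fits with 1 library left out. It was 1 of 5 neighbours tested there, beside 5.47% of all genes called higher in edgeR. With IL-33 against isotype edgeR called 0 of the 5, with an unadjusted p under 0.05 for 2, beside 13.6% of all genes. DESeq2 and limma voom each called C3 and Vav1 there. With both stimuli against isotype DESeq2 called C3 and Trip10 and limma voom called 0.

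**Figure D5:**
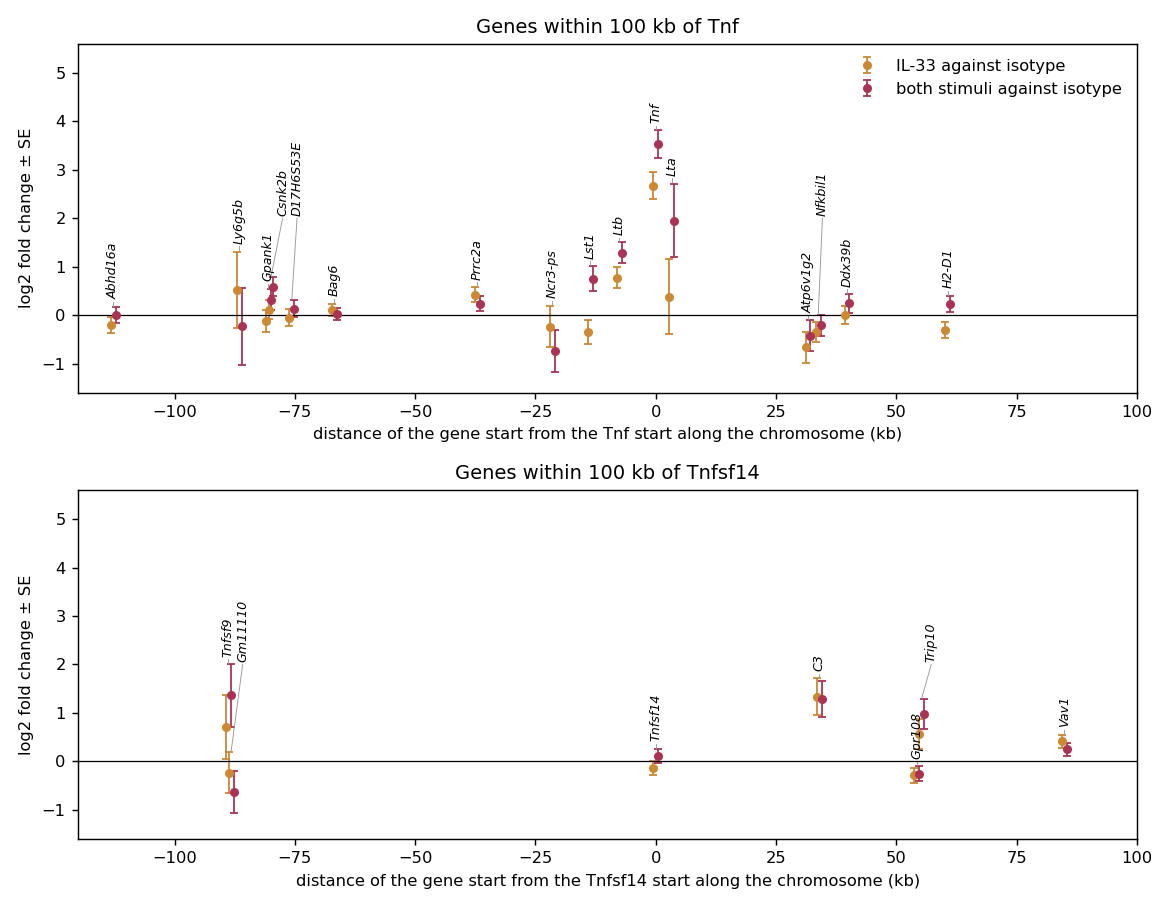
Log2 fold change ± SE (vertical axis) of genes whose span touches the 100 kb on either side of Tnf (top) and Tnfsf14 (bottom), by the distance of their start in kilobases, for IL-33 and both stimuli against isotype. Genes averaging at least 1 CPM, and Lta, are drawn, and Tnf at 2.68 and 3.53 stands above its neighbours.

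Across the 12 libraries the log2 CPM of Tnf followed closely M6pr and Peg10 (Pearson r 0.988 for each). Ltb followed Sms, Cd82 and Ube2l6 (0.977, 0.971 and 0.964), and Tnfsf14 followed Plin2, Anapc15 and Slc24a3 (0.873, 0.865 and 0.857). For the genes near the detection limit the highest were Faim with Lta (0.901), Wdr18 with Tnfsf9 (0.918) and Fastkd1 with Tnfsf10 (0.938). Between the ligands r was 0.821 for Tnf and Ltb and 0.0148 for Tnf and Tnfsf14. These values describe 12 libraries in 4 groups that share their treatment and depth.

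Markers of other cells were read beside these results. The summed CPM of 12 monocyte and macrophage markers, of which 11 were tested, was 764 to 878 with isotype, 854 to 1077 with anti-Siglec-F, 1178 to 1520 with IL-33 and 1373 to 1811 with both stimuli. The lowest and the highest sums of the groups stood in the same order as the group means of Tnf. The ranges of isotype and anti-Siglec-F overlapped, as did those of IL-33 and both stimuli. Csf1r made up most of the difference from isotype, with means of 433, 623, 844 and 1021 CPM in the order of the groups. Marco was at 0 in the 3 anti-Siglec-F libraries. Csf1r and Cd14 were called higher with IL-33 (log2 fold changes of 0.96 and 2.80) and with both stimuli (1.24 and 3.52), and Ccr2 lower with both (-1.13). The Cd14 call with IL-33 held in 2 of 6 fits with 1 library left out, its call with both stimuli in 6 of 6, and those of Csf1r in 6 of 6 in each comparison. The Ccr2 call held in 2 of 6, and was lost when libraries 2 and 3 of the combined group were dropped (adjusted p = 0.269). C1qa, which marks tissue macrophages, had means of 1.63 CPM with isotype and 0.758 CPM with IL-33, and Cd68 11.8 and 8.36 CPM, neither of them called. The part of these cells in the Tnf values was not tested. Summed markers of 14 T cell, NK cell and ILC2 genes were 37.8 to 64.8 CPM with isotype and 32.3 to 132 CPM with IL-33, the highest value being IL-33 library 2, and the 10 B and plasma cell markers were 709 to 1097 CPM and 604 to 1196 CPM. Ncr1, an NK cell marker, was at 0 in all isotype and anti-Siglec-F libraries. The 8 dendritic cell markers summed to 32.8 to 43.8 CPM with isotype, 46.0 to 89.6 CPM with IL-33 and 81.5 to 141 CPM with both stimuli, with Batf3 called higher (log2 fold changes of 1.36 and 2.43). Batf3 made up most of that difference, with means of 16.1 CPM with isotype, 41.4 CPM with IL-33 and 87.0 CPM with both stimuli, while Ccr7 and Zbtb46 had values of -0.11 and -0.11 with both stimuli and were not called. The Batf3 call with IL-33 held in 1 of 6 fits with 1 library left out, that with both stimuli in 6 of 6. The 6 stroma and endothelium markers, of which 3 were tested, summed to 295 to 336 CPM with isotype and 492 to 546 CPM with both stimuli. Pecam1 made up most of these sums, with means of 304 CPM with isotype and 504 CPM with both stimuli. Col1a1 and Col3a1 were at 0 in all isotype libraries. With both stimuli Pecam1 (0.73, adjusted p = 0.0102 in edgeR) and Acta2 (1.16, adjusted p = 0.0256) were called higher. The Pecam1 call was lost without isotype library 1, and the Acta2 call held in 2 of 6 such fits and was lost without both libraries that stood apart (adjusted p = 0.407). The neutrophil markers summed to 976 to 2171 CPM with isotype and 476 to 1547 CPM with IL-33, and the basophil and mast cell markers to 150 to 192 CPM and 158 to 231 CPM, with Cd200r3 called lower with IL-33 (-1.50, a call lost in each of the 6 fits with 1 library left out).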

How the data were processed

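The authors deposited raw counts per gene, all of them whole numbers, for 54532 genes in 12 libraries, together with a gene length and coordinates. The submitters' processing notes name the build mm10, STAR 2.6.1d and featureCounts 1.5.0-p3, as well as fastp, FastQC 0.11.8 and DESeq2. Which annotation release was counted, and with which strand setting, is not given in the sources used here. A deposited table of normalized counts was not used.

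These counts were tested in edgeR 4.0.16 (R 4.3.3) by its quasi-likelihood F test, with TMM scaling, filterByExpr by group and all 12 libraries in 1 fit. This left 14547 genes. Benjamini-Hochberg adjustment ran over all of them within each of 6 comparisons, and an adjusted p under 0.05 was called. CPM per kilobase used the deposited gene length. Likeness between genes was Pearson's r of log2 CPM with a prior count of 2, among genes averaging at least 5 CPM that are not predicted models or pseudogenes. The 3 genes most alike were taken for each ligand, and 1 of them is not reported here. The text names all 7 ligands, receptors of these ligands and up to 4 called genes per list and comparison, taken by size of change. A few others (Prrc2a, Lst1, Vav1, Trip10, Tnfrsf18, Traf5, Tnfrsf26, Adam17 and Zfp36 beside larger changes, and marker genes) were named after their values were seen. The ligands and all lists were chosen with earlier results of these data known.

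Equal replicate numbers were taken as pairing libraries where every correlation of their deviations from the group means was over 0.1. This held for IL-33 against isotype (0.241, 0.239 and 0.167), from the data and not from the labels, and for no other pair of groups. Alternatives were DESeq2 1.42.0, limma 3.58.1 voom with quality weights, DESeq2's size factors in edgeR, other filters, the replicate block, fits of the compared groups alone, and fits without single libraries or with libraries 2 and 3 of the combined group left out. The edgeR script was tested on simulated data.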

Additional observations from a re-analysis of the deposited data

How the results depend on the processing

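Tnf kept its direction and its call in the 3 comparisons of a group with IL-33 against one without it under all alternatives that were run. Differences of the 4 ligands with few counts are limited by depth, and Lta, Tnfsf9 or Tnfsf10 has no value where a filter removed it.

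All genes called for IL-33 against isotype, 322 in edgeR, were 806 in DESeq2, 683 with no expression filter, 2089 in limma voom and 688 with libraries 2 and 3 of the combined group left out, and 2 ligands were called in each of these. With the replicate block and only the groups compared they were 1235, with 2 ligands, and with the block over 12 libraries 364. For anti-Siglec-F against isotype the count of 0 was 12 in DESeq2, 70 with no filter, 10 in limma voom, 20 with only the groups compared and 50 with the replicate block added, each with 1 ligand, Tnf, and 1 gene without libraries 2 and 3. For both stimuli against isotype the 1437 were 2404 in DESeq2, 738 with only the groups compared, 916 with the replicate block added, and 651, with 1 ligand, without libraries 2 and 3. For both stimuli against IL-33 the 0 was 470 in DESeq2 and 786 with no filter, each with 1 ligand, Tnf. For both stimuli against anti-Siglec-F the 643 were 1627 in DESeq2, 1600 with no filter, 424 in limma voom, 220 without libraries 2 and 3, 242 with only the groups compared and 350 with the replicate block added. For the interaction they were 3 in DESeq2 and 86 with no filter. The cause of these shifts was not tested.

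With 1 library left out, genes called ran from 116 to 488 for IL-33 against isotype (1 to 2 ligands), from 515 to 2916 for both stimuli against isotype (2 to 3), from 0 to 2116 for both stimuli against IL-33 (0 to 2), from 124 to 2839 for both stimuli against anti-Siglec-F (2 to 3) and from 0 to 4 for the interaction (0 ligands), and were 0 throughout for anti-Siglec-F against isotype.

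Signs turned only in values that were not called. For anti-Siglec-F against isotype Tnfsf9 was -0.27 in limma voom and -0.31 to 0.55 with 1 library left out, Lta -0.67 to 0.38 and Tnfsf10 -0.26 to 1.26. For both stimuli against isotype Tnfsf10 was -0.62 in limma voom and -0.63 to 0.66 with 1 library left out. With libraries 2 and 3 of the combined group left out Tnfsf9 was -0.61 against IL-33, -0.093 against anti-Siglec-F and -0.82 in the interaction, and Tnfsf10 was 0.18 against anti-Siglec-F. With 1 library left out Tnfsf10 was -1.47 to 0.39 and Tnfsf14 -0.18 to 0.026 for both stimuli against anti-Siglec-F, and Tnfsf14 -0.074 to 0.13 in the interaction. Closeness was read in a single direction, from the group that comes earlier in the order isotype, anti-Siglec-F, IL-33 and both stimuli. Each isotype library was closest to the IL-33 library of its own number, and in no other pair of groups did this hold for all libraries. In every pair, library 1 of the earlier group was closest to library 1 of the other, with correlations from 0.111 to 0.27. The block with 12 libraries changed no call of a ligand.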

Other observations

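Library 2 of the IL-33 group held the highest level of Tnfsf8, the ligand of CD30 on lymphocytes, at 20.5 CPM against 4.96 and 2.86 CPM in the other IL-33 libraries and at most 7.55 CPM in the other groups. The same library held the highest Tnfrsf9 level of its group, 8.97 CPM against 4.38 and 1.47 CPM, and the highest sum of the T cell, NK cell and ILC2 markers, 132 CPM. Its levels of Tnf and Tnfsf14, 133 and 129 CPM, were within or near the range of the other IL-33 libraries. Its Ltb level, 599 CPM, was the highest of the group, against 461 and 403 CPM. Its B and plasma cell markers also had the highest sum of the group, 1196 CPM against 604 and 665 CPM. The part of lymphocytes in the ligand values was not tested. The comparison of IL-33 with isotype for Tnfsf8 had a log2 fold change of 0.86 (SE 0.572, adjusted p = 0.615 in edgeR).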
